A study of Mus musculus with 4 samples.

Results

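Neurotrophins and their receptors were followed in brains of mouse embryos at embryonic day 15. The 6 genes were taken by name from the authors' table: the ligand genes Bdnf and Ntf3, the tyrosine kinase receptor genes Ntrk2 and Ntrk3, and the receptor genes Ngfr and Sort1. All 6 were found, each once, among 20421 genes. Brains labelled FOXM1f/+;Nestin-Cre were compared with brains labelled WT, all of the C57BL/6 strain, with 2 samples listed for each genotype. Both genotypes are represented in the table by 1 column of read counts, called the FOXM1f/+;Nestin-Cre library and the WT library here, and a column names no sample. Nestin-Cre is a Cre recombinase driver active in neural progenitors, FOXM1 is a forkhead transcription factor of the cell cycle, and the labels do not say how the FOXM1 allele was built. The titles of the WT samples name the nestin or the foxm1 allele alone, so a WT column may come from an animal that carries either of them. The sources used here do not give whether a column is 1 brain or a pool.

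Neurotrophins are secreted as precursors and are cleaved to mature growth factors. Mature BDNF, made from Bdnf, acts through TrkB, the product of Ntrk2, and mature neurotrophin-3, made from Ntf3, acts mainly through TrkC, the product of Ntrk3. Both Trk receptors are also made in forms that bind ligand and lack the kinase domain. The p75 neurotrophin receptor, the product of Ngfr, binds all neurotrophins, and together with sortilin, the product of Sort1, it binds the uncleaved precursors. In the developing forebrain these signals are known for the survival, migration and outgrowth of neurons.

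The ligands are paralogs of each other, and so are the Trk receptors, so the sequences were first compared to see how long a stretch the genes of a pair share. In GENCODE release M21 on GRCm38, the longest run of identical coding bases between Ntrk2 and Ntrk3 was 23 bases. It lies in exon 15 of Ntrk2 (chr13:59054387-59054449, plus strand, with its flanks) and in exon 14 of Ntrk3 (chr7:78250717-78250779, minus strand). The shared run stands in capitals with 20 bases on each side, 5′ to 3′.
Ntrk2: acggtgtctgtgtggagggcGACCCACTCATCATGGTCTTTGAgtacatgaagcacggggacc
Ntrk3: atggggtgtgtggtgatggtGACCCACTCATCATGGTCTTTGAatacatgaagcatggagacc
Between Bdnf and Ntf3 the longest run was 17 bases, in exon 2 of the Bdnf transcript compared (chr2:109724085-109724141, plus strand) and in exon 3 of Ntf3 (chr6:126101740-126101796, minus strand).
Bdnf: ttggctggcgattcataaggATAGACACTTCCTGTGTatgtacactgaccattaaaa
Ntf3: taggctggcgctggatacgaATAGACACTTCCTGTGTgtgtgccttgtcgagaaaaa
The sources used here do not give the read length. Of the 6 genes, Bdnf shared 896 exonic bases with the antisense gene Gm45346 and Sort1 338 with the antisense gene Gm12523. These are 14.4% of the exon bases of Bdnf and 4.47% of those of Sort1. The strand setting of the counting is not given either, so reads within the shared bases cannot be told apart from reads of the antisense partner.

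The FOXM1f/+;Nestin-Cre library held 17856653 reads in the table and the WT library 17543705. Values are CPM, the read count of a gene scaled by the authors to the total of its library, and 1 read was worth 0.0560 CPM in the FOXM1f/+;Nestin-Cre library and 0.0570 CPM in the WT library. The table gives no replicate values, so no test across animals could be made. Each ratio is FOXM1f/+;Nestin-Cre over WT and is followed by an exact 95% interval that covers counting error only. The mouse Foxm1 gene had 1289 reads in the FOXM1f/+;Nestin-Cre library and 1139 in the WT library, a ratio of 1.11 (1.03 to 1.21). The libraries differed in sex content, since the Y-linked genes Ddx3y, Eif2s3y, Kdm5d and Uty were at 0 reads in the FOXM1f/+;Nestin-Cre library. Xist had 9628 reads there and 5 in the WT library, where Eif2s3y had 1266, Kdm5d 773 and Ddx3y 484. The sex-linked markers summed to 539 CPM in the FOXM1f/+;Nestin-Cre library, all of it Xist. In the WT library they summed to 156 CPM, nearly all of it from the Y-linked genes. The part of sex in the results was not tested and cannot be told apart from genotype here.

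All 6 genes were detected in both libraries, and the receptors stood far above the ligands. Per kb of annotated exon, the order in the FOXM1f/+;Nestin-Cre library was Sort1 at 21.6 CPM per kb, Ngfr at 5.18, Ntrk2 at 4.61, Ntrk3 at 3.33, Ntf3 at 0.621 and Bdnf at 0.153. In the WT library it was Sort1 at 22.9 CPM per kb, Ntrk2 at 6.20, Ngfr at 5.16, Ntrk3 at 3.56, Ntf3 at 1.03 and Bdnf at 0.137. Ngfr and Ntrk2 were the only neighbours whose intervals overlapped, and only in the FOXM1f/+;Nestin-Cre library (4.63 to 5.78 and 4.39 to 4.84 CPM per kb). The order of the middle genes rests on the length used. Divided by the longest coding transcript in place of all annotated exons, Ntrk2 stood second in both libraries, at 10.2 CPM per kb in the FOXM1f/+;Nestin-Cre library and 13.7 in the WT library. Ngfr and Ntrk3 then lay close together, at 5.18 and 5.10 CPM per kb in the FOXM1f/+;Nestin-Cre library and 5.16 and 5.45 in the WT library.

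**Figure D1:**
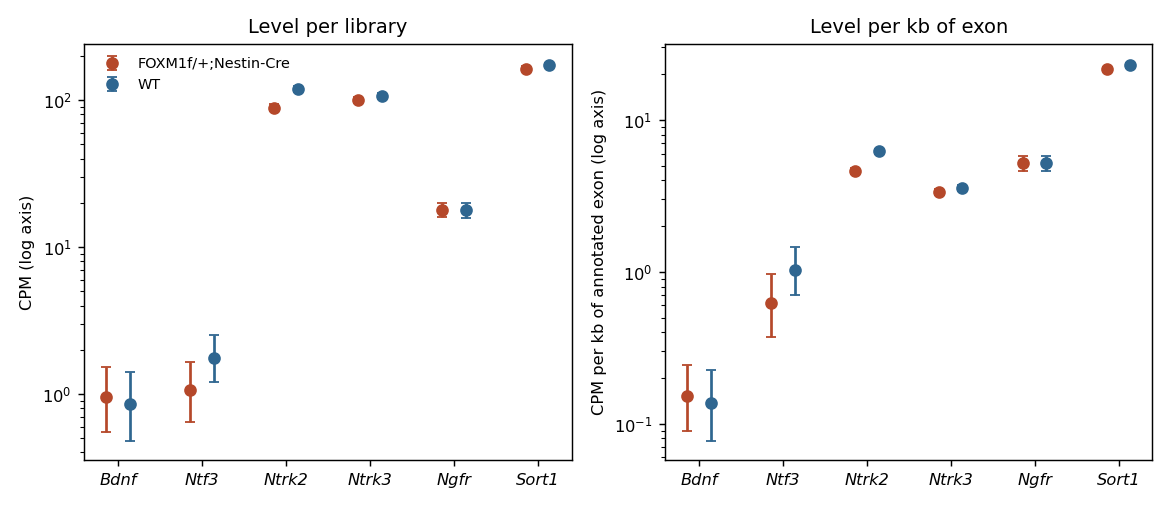
Level of each of the 6 genes in the FOXM1f/+;Nestin-Cre library (left point of each pair) and the WT library (right point), as CPM (left panel) and as CPM per kb of annotated exon (right panel), both on log axes. Bars are exact Poisson 95% intervals of the counts, and the Ntrk2 points, at 89.0 CPM in FOXM1f/+;Nestin-Cre and 119.6 CPM in WT, are set apart from each other and the Ngfr points lie side by side.

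Ligand transcripts were rare. Bdnf (ENSMUSG00000048482, chr2:109674700-109727007, plus strand) had 17 reads (0.952 CPM) in the FOXM1f/+;Nestin-Cre library and 15 reads (0.855 CPM) in the WT library. The ratio was 1.11, with an interval from 0.523 to 2.39. Bdnf was the 1 gene of the 6 below the minimum of 1 CPM on average that was used for counts over genes. Its 11 annotated coding transcripts differ in their first exons, and the counts do not separate them.

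Ntf3 (ENSMUSG00000049107, chr6:126101412-126166910, minus strand) had 19 reads (1.06 CPM) in the FOXM1f/+;Nestin-Cre library and 31 reads (1.77 CPM) in the WT library. It was the 1 gene of the 6 past 1.5-fold, 1.66-fold lower, and its ratio of 0.602 (0.321 to 1.10) had an interval that reached past 1. A difference between the libraries was therefore not detectable for either ligand at this depth.

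Among the 4 receptor genes, Ntrk2 differed most between the libraries. The gene (ENSMUSG00000055254, chr13:58806569-59133970, plus strand) had 1589 reads (89.0 CPM) in the FOXM1f/+;Nestin-Cre library and 2098 reads (119.6 CPM) in the WT library. It was 1.34-fold lower in the FOXM1f/+;Nestin-Cre library (1.26 to 1.44), a log2 ratio of -0.43 (-0.52 to -0.33). Of 3973 genes with a mean of 50 to 200 CPM, a band chosen after the values were seen, 37 (0.931%) had a lower log2 ratio than Ntrk2. Among all 14557 genes that averaged 1 CPM or more over the libraries, 8.50% had a lower one. The annotated coding transcripts of Ntrk2 encode from 466 to 821 codons, receptors without and with the kinase domain among them, and the counts add them up. In bulk tissue, fewer cells that express Ntrk2 and less Ntrk2 RNA per cell cannot be told apart.

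Ntrk3 lay much closer to an equal level. The gene (ENSMUSG00000059146, chr7:78175959-78738012, minus strand) had 1794 reads (100.4 CPM) in the FOXM1f/+;Nestin-Cre library and 1884 reads (107.4 CPM) in the WT library. The ratio was 0.936 (0.877 to 0.999), a log2 ratio of -0.10. That interval lay just below 1 with the authors' totals and reached past 1 when the libraries were scaled by edgeR's TMM or RLE factors. In the band of 50 to 200 CPM, 25.0% of genes had a lower log2 ratio than Ntrk3. Its complete coding transcripts encode from 612 to 864 codons.

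**Figure D2:**
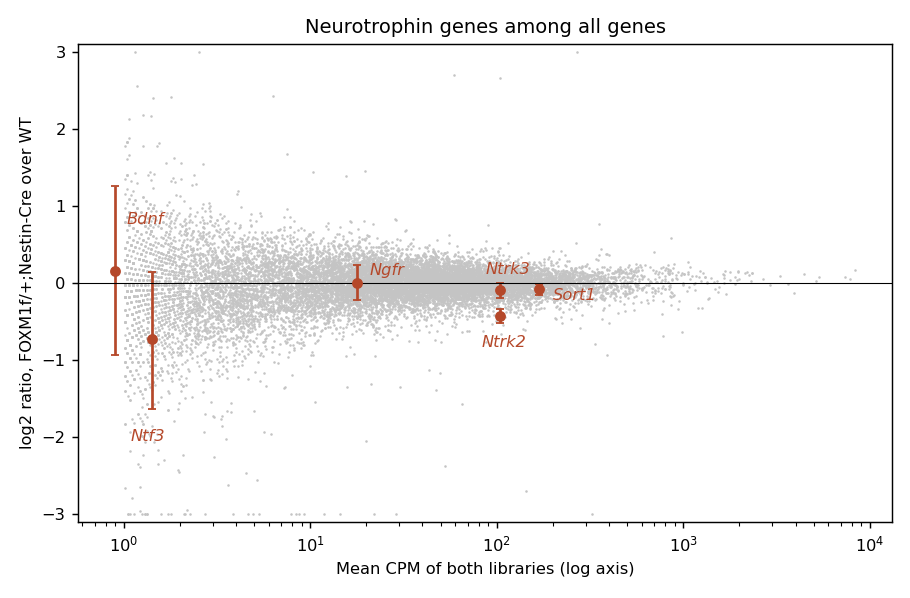
Log2 ratio of FOXM1f/+;Nestin-Cre over WT against mean CPM (log axis) for the 6 genes (red) and all genes that averaged 1 CPM or more (grey). Bars are 95% counting intervals, the 32 genes beyond 3 in either direction are drawn at that limit and 8 genes at 0 reads in 1 library are left out, and Ntrk2 at -0.43 lies at the lower edge of genes of its level.

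The p75 receptor gene Ngfr (ENSMUSG00000000120, chr11:95568818-95587735, minus strand) had 319 reads (17.9 CPM) in the FOXM1f/+;Nestin-Cre library and 312 reads (17.8 CPM) in the WT library. Its log2 ratio of 0.01 (-0.22 to 0.24) was the nearest to 0 among the 6 genes, and the interval leaves room for a ratio from 0.857 to 1.18. Sort1 (ENSMUSG00000068747, chr3:108284082-108361511, plus strand), the sorting receptor gene and the most abundant of the 6, had 2920 reads (163 CPM) in the FOXM1f/+;Nestin-Cre library and 3038 reads (173 CPM) in the WT library. It was 1.06-fold lower (1.01 to 1.11). As for Ntrk3, the interval of Sort1 reached past an equal level with TMM or RLE scaling.

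Counts of 2 genes in the same library share its depth, so their ratio does not depend on how the libraries are scaled. For every 1 read of Ntrk3 there were 0.886 reads of Ntrk2 in the FOXM1f/+;Nestin-Cre library and 1.11 in the WT library, 0.795-fold (0.725 to 0.873). Against Sort1, there were 0.544 reads of Ntrk2 in the FOXM1f/+;Nestin-Cre library and 0.691 in the WT library, 0.788-fold (0.725 to 0.857). Against Ngfr, there were 4.98 reads of Ntrk2 in the FOXM1f/+;Nestin-Cre library and 6.72 in the WT library, 0.741-fold (0.623 to 0.881). These were the 3 of 15 pairs whose interval lay on one side of 1, and all 3 contain Ntrk2. They use the same Ntrk2 reads, so they are 1 difference set against 3 genes and not 3 separate results. The pair of Ntrk3 and Sort1 kept nearly the same proportion, 0.614 reads of Ntrk3 per read of Sort1 in the FOXM1f/+;Nestin-Cre library and 0.620 in the WT library, 0.991-fold (0.912 to 1.08). Every pair with a ligand had an interval across 1.

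**Figure D3:**
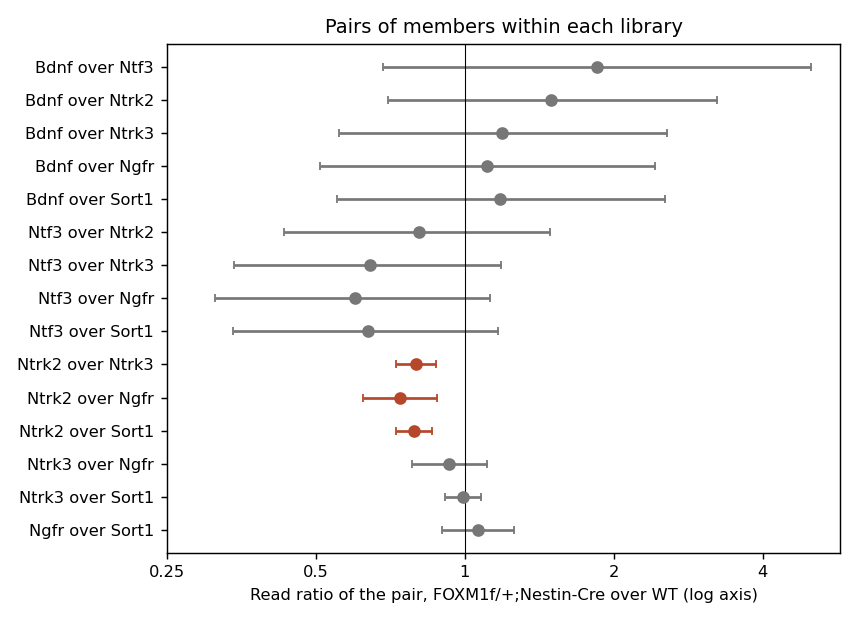
Ratio of the reads of 2 genes in the FOXM1f/+;Nestin-Cre library over the same ratio in the WT library, for all 15 pairs of the 6 genes (log axis). Bars are exact conditional 95% intervals of counting error, and the 3 pairs in red, Ntrk2 over Ntrk3, Ngfr and Sort1, lie wholly below 1.

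Of the 5 genes that averaged 1 CPM or more, 1 was at least 1.5-fold lower (Ntf3) and none at least 1.5-fold higher in the FOXM1f/+;Nestin-Cre library, against 5.23% lower and 2.53% higher among all 14557 genes. At a fold of at least 1.2, 2 were lower (Ntrk2 and Ntf3) and none higher, against 15.7% lower and 11.5% higher among all genes. At a fold of at least 2 none of the 5 was lower or higher, against 1.83% lower and 0.522% higher among all genes. For 3 of the 5 (Ntrk2, Ntrk3 and Sort1) the interval lay wholly below 1, and for none wholly above. Over all genes the interval lay below 1 for 19.2% and above 1 for 16.5%. Over genes of 50 to 200 CPM, the band that holds those 3 genes, these shares were 24.0% below and 20.9% above. With TMM or RLE scaling the count was 1, Ntrk2 alone. More of all genes then had an interval above 1 than below, 18.8% against 17.1% with TMM and 20.3% against 16.1% with RLE. The median log2 ratio of the 5 genes was -0.10, beside -0.01 for all genes. The authors' deposited table marked none of the 6 genes as significant. The rule behind that mark was not examined here, and Ntrk2 was unmarked at the lowest p-value of the 6. In the authors' test of 1 column against 1 column, the p-value was 4.27e-19 for Ntrk2 (adjusted 2.73e-17) and 0.0271 for Sort1 (adjusted 0.0663). It was 0.0435 for Ntrk3 (adjusted 0.0917) and 0.0773 for Ntf3 (adjusted 0.138). For Bdnf (0.761, adjusted 0.550) and Ngfr (0.955, adjusted 0.622) the adjusted value lay below the p-value.

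Since the genotype names a forkhead factor, the promoter windows were searched for short motifs on both strands. RefSeq (GRCm38.p6) gave windows of 300 bases at annotated starts for 4 of the 6 genes: 7 for Bdnf, 2 for Ntf3, 1 for Ngfr and 1 for Ntrk2. The motifs were the forkhead core TAAACA, the cell cycle homology region TTTGAA, the CRE core TGACG, which also lies within the full CRE TGACGTCA, and the GC box GGGCGG. Among all 32851 windows, 13.4% hold the forkhead core, 17.9% the cell cycle homology region, 20.8% the CRE core, 1.79% the full CRE and 35.7% the GC box. The Ntrk2 window is shown because Ntrk2 differed most among the receptor genes. It runs over chr13:58806319-58806618 on the plus strand and holds 1 GC box, in capitals, and none of the other motifs.
Ntrk2 promoter: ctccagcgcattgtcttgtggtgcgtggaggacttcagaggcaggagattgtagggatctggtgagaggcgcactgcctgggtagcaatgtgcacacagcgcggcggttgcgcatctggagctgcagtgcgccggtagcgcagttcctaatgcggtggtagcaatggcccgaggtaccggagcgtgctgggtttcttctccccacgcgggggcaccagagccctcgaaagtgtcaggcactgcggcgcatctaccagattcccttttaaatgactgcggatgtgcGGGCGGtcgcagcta
The forkhead core was found in 1 of the 11 windows, a Bdnf window at chr2:109692777-109693076 on the plus strand, where it reads TGTTTA, the motif on the other strand. That window also holds 1 GC box, and both stand in capitals.
Bdnf promoter: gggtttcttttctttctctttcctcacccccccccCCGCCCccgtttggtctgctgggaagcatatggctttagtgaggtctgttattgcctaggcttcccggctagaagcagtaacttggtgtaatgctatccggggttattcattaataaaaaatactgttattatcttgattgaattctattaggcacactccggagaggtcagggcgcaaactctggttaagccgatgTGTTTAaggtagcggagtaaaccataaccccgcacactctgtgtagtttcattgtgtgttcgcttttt
The cell cycle homology region was found in 1 window, of Ntf3 (chr6:126164911-126165210, minus strand), and the CRE core in 1 window, of Bdnf (chr2:109692186-109692485, plus strand). No window holds the full CRE, and 6 of the 11 hold a GC box, among them windows of all 4 genes. A match is a description of the letters, and a window without one says nothing of the factor.

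Partners of the receptors were next set beside them. The counts of each list stand against 19.2% of all genes with an interval below 1 and 16.5% above. Among genes of 50 to 200 CPM the shares were 24.0% below and 20.9% above. All these counts use the authors' totals, and with TMM or RLE scaling more of all genes lay above 1 than below. Of 17 genes of the sortilin family and p75 partners, 7 had intervals below 1, 3 above and 7 across it, with a median log2 ratio of -0.09. Lingo1, a co-receptor of p75 in the Nogo receptor complex, had 1593 reads in the FOXM1f/+;Nestin-Cre library and 2060 in the WT library and was 1.32-fold lower (1.23 to 1.41). Kidins220, a scaffold that binds Trk receptors and p75, was 1.15-fold lower (1.11 to 1.19). Arhgdia, an intracellular protein that binds p75, had a ratio of 1.08 (1.05 to 1.11).

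Of 17 genes for processing and secretion of the precursors, 5 had intervals below 1, 1 above and 11 across it, with a median of -0.06. Over the genes of this list with a mean of at least 10 CPM the median was 0.012, on the other side of 0. Furin, a protease that cleaves the precursors, had 673 reads in the FOXM1f/+;Nestin-Cre library and 881 in the WT library, a ratio of 0.751 (0.678 to 0.831). Cpe, a sorting receptor for BDNF in secretory granules, was 1.09-fold lower (1.05 to 1.13), and the matrix protease Mmp2 1.70-fold lower (1.24 to 2.34).

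The list of Trk adaptors and downstream kinases was the longest. Of 56 genes, 21 had intervals below 1, 4 above and 31 across it, and the median was -0.07. The small GTPase gene Hras had 1479 reads in the FOXM1f/+;Nestin-Cre library and 1934 in the WT library and was 1.33-fold lower (1.24 to 1.43). The adaptor Shc2 had a ratio of 0.746 (0.670 to 0.830), and Pik3r1, a regulatory subunit of phosphoinositide kinase, was 1.23-fold lower (1.13 to 1.33).

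Regulators of Bdnf transcription and response genes were described in the same way. Of 20 regulators, 6 had intervals below 1, 1 above and 13 across it, with a median of -0.05. Mef2c, a factor of maturing neurons, had 1613 reads in the FOXM1f/+;Nestin-Cre library and 2110 in the WT library and was 1.33-fold lower (1.25 to 1.42). The CREB coactivator Crtc3 was 1.28-fold lower (1.13 to 1.45) and the serum response factor Srf 1.13-fold lower (1.04 to 1.22). Of 24 activity and BDNF-response genes, 9 had intervals below 1, 1 above and 14 across it, with a median of -0.12. Slc12a5, the neuronal chloride exporter, was 1.23-fold lower (1.12 to 1.34), the nuclear receptor Nr4a3 1.27-fold lower (1.13 to 1.42), and the nuclear receptor Nr4a1 had a ratio of 0.675 (0.547 to 0.832). Each of these medians stands beside -0.01 for all genes. With RLE scaling the median of all genes was 0.02, and those of the processing genes, the Trk adaptors and kinases and the Bdnf regulators were -0.031, -0.044 and -0.027.

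**Figure D4:**
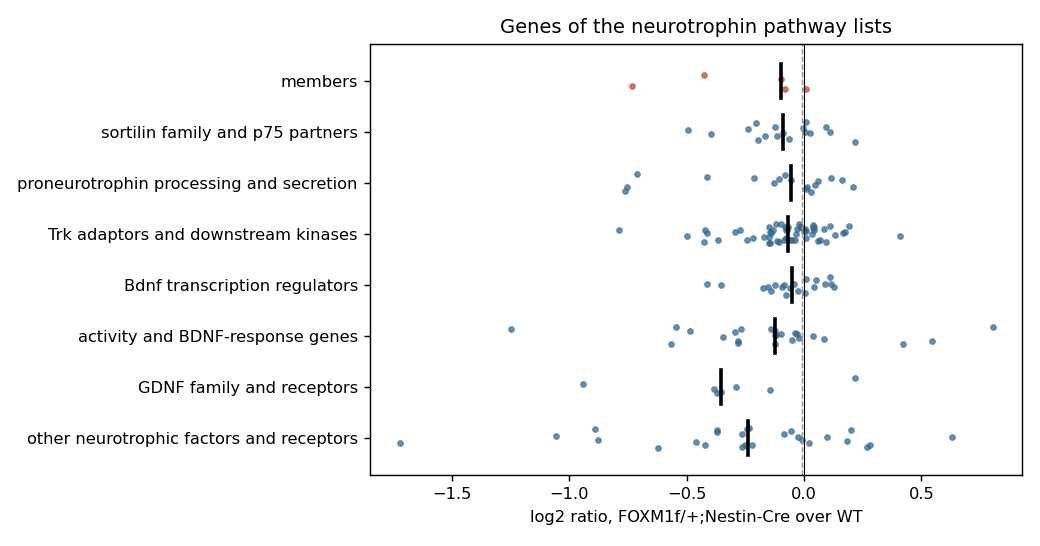
Log2 ratio of FOXM1f/+;Nestin-Cre over WT for each gene with a mean of at least 1 CPM in the 6 genes (members, red) and 7 further lists (blue). Black bars are list medians and the dashed line is the median of all genes, -0.01, and the 5 members range from -0.73 to 0.01.

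Markers of cell types moved in both directions beside Ntrk2, and their part in its ratio was not tested. Intervals were counted over genes that averaged 1 CPM or more. Over all such genes 19.2% had an interval below 1 and 16.5% above, and intervals are narrower where counts are high. Summed levels cover every gene of a list in the table, so that a sum can hold a few more genes than the count. Genes of maturing neurons were lower, with 12 of 14 intervals below 1 and none above, a median of -0.26 and a summed level of 3672 CPM in the FOXM1f/+;Nestin-Cre library and 4280 CPM in the WT library. Of 6 oligodendrocyte precursor genes 4 had intervals below 1 and none above, at 68.6 CPM in FOXM1f/+;Nestin-Cre and 87.9 CPM in WT in sum. Of 7 astroglia genes 3 lay below and 1 above, and the 9 in the table summed to 434 CPM in FOXM1f/+;Nestin-Cre and 442 CPM in WT. Genes of cycling cells were all 10 above 1, at 1428 CPM in the FOXM1f/+;Nestin-Cre library and 1112 CPM in the WT library. Of 9 apical progenitor genes 6 lay above and none below, at 2101 CPM in FOXM1f/+;Nestin-Cre and 1701 CPM in WT. Of 8 choroid plexus genes 7 lay below and none above, and the 9 in the table summed to 30.6 CPM in the FOXM1f/+;Nestin-Cre library and 740 CPM in the WT library.

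Further lists covered other cells, among them some in which Ngfr or the Trk receptors are known. Their counts stand against the same shares of all genes, 19.2% below 1 and 16.5% above. For basal forebrain cholinergic neurons, a list that holds Ngfr itself, all 5 intervals lay across 1, and the 7 genes in the table summed to 110.3 CPM in the FOXM1f/+;Nestin-Cre library and 110.9 CPM in the WT library. Of 7 subplate genes none had an interval off 1, and the 8 in the table summed to 138 CPM in FOXM1f/+;Nestin-Cre and 135 CPM in WT. Of 4 sensory ganglion genes 1 lay above and none below, and the 9 in the table summed to 27.4 CPM in FOXM1f/+;Nestin-Cre and 28.8 CPM in WT. Of 3 Schwann and crest glia genes 1 lay below and none above, and the 4 in the table summed to 14.5 CPM in FOXM1f/+;Nestin-Cre and 16.6 CPM in WT. Of 9 Cajal-Retzius genes 4 lay above and 2 below, at 354 CPM in FOXM1f/+;Nestin-Cre and 355 CPM in WT. Of 11 interneuron genes 3 lay above and 3 below, at 1408 CPM in FOXM1f/+;Nestin-Cre and 1422 CPM in WT. Of 8 meningeal and pericyte genes 2 lay above and 4 below, and the 10 in the table summed to 95.3 CPM in FOXM1f/+;Nestin-Cre and 117 CPM in WT. Of 8 endothelial genes 1 lay above and 2 below, at 245 CPM in FOXM1f/+;Nestin-Cre and 250 CPM in WT. Of 8 microglia genes none lay above and 4 below, at 42.8 CPM in FOXM1f/+;Nestin-Cre and 51.3 CPM in WT. Erythroid genes had 6 of 10 intervals above 1, none below and 4 across it, at 1185 CPM in FOXM1f/+;Nestin-Cre and 738 CPM in WT. Within that list Hbb-y had 3194 reads in FOXM1f/+;Nestin-Cre and 499 in WT. In the same order Hba-a1 had 7946 and 4604 reads and Hbb-bs 7824 and 5942. Hbb-bt, with 1260 and 1244, and Hba-a2, with 175 and 184, lay near an equal level. Embryonic day 15 is the age on the labels, and whether the libraries differ in developmental stage was not tested. No marker of these lists in the table was at 0 reads. For the labelled tissue, all 10 brain and telencephalon genes were present, at 7143 CPM in FOXM1f/+;Nestin-Cre and 7568 CPM in WT in sum. The hindbrain and spinal cord markers were not analysed here.

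**Figure D5:**
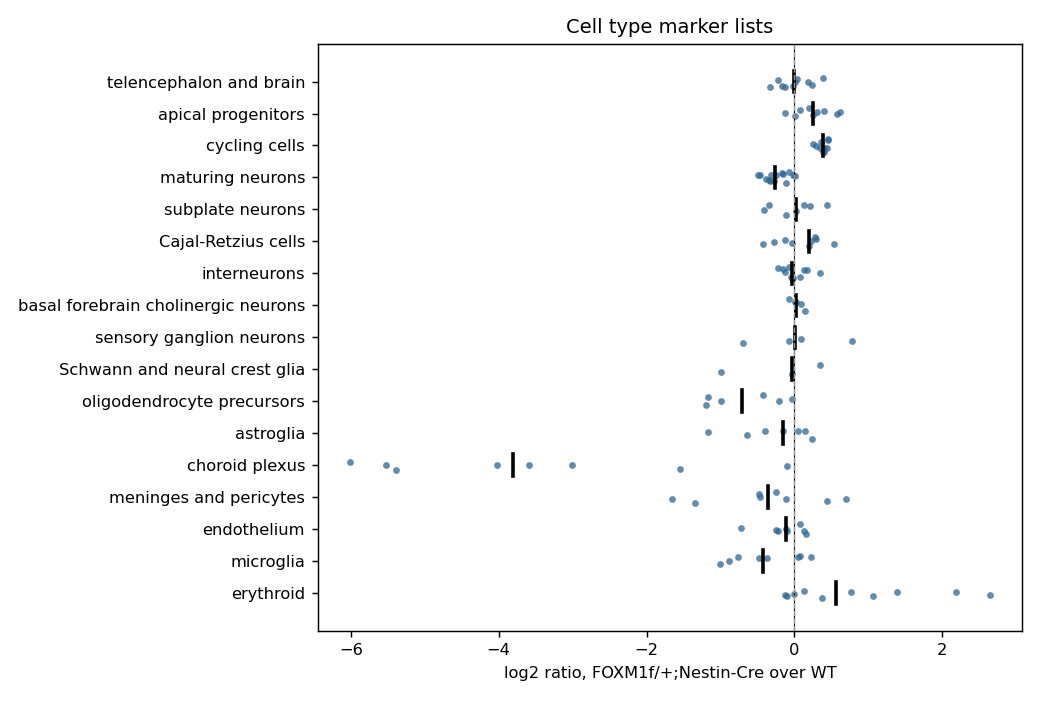
Log2 ratio of FOXM1f/+;Nestin-Cre over WT for the genes of 17 cell type marker lists with a mean of at least 1 CPM. Black bars are list medians and the dashed line is the median of all genes, and cycling cells (0.39) and maturing neurons (-0.26) lie on opposite sides of 0, and choroid plexus genes lie farthest out at -3.80.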

How the data were processed

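Total RNA (2 ug per sample) was extracted with Trizol, per the labels' protocols. Tools named in the submitters' processing notes are Bowtie2 2.2.3, TopHat2 2.0.12 and HTSeq 0.6.0, with the build mm9. Gene positions in the table are those of GRCm38: 20388 identifiers occur in GENCODE release M21, and 91.7% of these have its start and end, all 6 genes among them. The design text speaks of triplicates, while 4 samples are listed.

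Per the file headers, the authors deposited raw read counts and normalized values, 1 column of each for a genotype. The authors' normalized values are CPM (the count times a constant in each column, where a count of 0 stands as 0.5 reads). The totals behind the authors' CPM exceed the reads in the table by 3000 in the FOXM1f/+;Nestin-Cre column and 3563 in the WT column. The authors' fold change is the FOXM1f/+;Nestin-Cre CPM over the WT CPM, and the authors' log2 values are taken from it. The authors' p-values compare 1 column with 1 column, by a test not given in the sources used here.

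Ratios of CPM have exact conditional (Clopper-Pearson) 95% intervals, levels exact Poisson intervals and pairs of genes exact conditional odds ratios. All cover counting error only, and reads without molecular identifiers need not be separate molecules. Counts over genes used a mean of at least 1 CPM, and 1.5-fold as the fold called. Exon lengths are the union of GENCODE M21 exons. Up to 3 genes per pathway list are named, those with the largest log2 ratio relative to counting error whose interval excludes 1. Marker lists are given as counts and sums, with a few genes named for the erythroid and sex-linked lists. A few genes of these lists are not reported here by name. The 6 genes and all lists were chosen with earlier results of these data known. Alternatives were TMM and RLE scaling, other CPM minimums, folds of 1.2 and 2, a 99% interval and totals without plexus, erythroid and sex-linked genes. The interval was tested on simulated Poisson counts, the model it assumes. That simulation holds no spread between animals and no duplicate reads, so it says nothing of either. Python 3.11.15, NumPy 2.4.6, pandas 2.3.3, SciPy 1.17.1, Matplotlib 3.10.9, R 4.3.3 and edgeR 4.0.16 (scaling factors only) were used.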

Additional observations from a re-analysis of the deposited data

How the results depend on the processing

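Ntrk2 kept its direction and an interval below 0 under all 4 scalings, with a log2 ratio from -0.43 to -0.40. A scaling shifts the log2 ratio of every gene by 1 amount, 0.0160 with TMM factors and 0.0255 with RLE size factors. The Ntrk2 interval ended at -0.33 with the authors' totals, so shifts of this size could not bring it to 0. Ntrk3 (-0.10 to -0.07) and Sort1 (-0.08 to -0.06) kept their direction, and their intervals reached past 0 with TMM and with RLE factors. The intervals lay below 0 with the authors' totals and with totals without plexus, erythroid and sex-linked genes. Those 2 scalings are nearly the same, with a shift of 0.000175 in log2 ratio between them. The count of genes with an interval below 1 was 3, and it was 1 with TMM factors, 1 with RLE size factors and 1 with a 99% interval. Over all genes the larger share lay below 1 with the authors' totals, 19.2% against 16.5% above. It lay above 1 with TMM factors (18.8%, and 17.1% below) and with RLE size factors (20.3%, and 16.1% below). The count of genes at least 1.5-fold lower was 1; it was 0 with a mean of at least 10 CPM, which drops Ntf3, 2 with a fold of at least 1.2 (Ntrk2 and Ntf3) and 0 with a fold of at least 2. List medians moved too. With a mean of at least 10 CPM, which leaves out genes of low level, the median log2 ratio of the processing and secretion genes was 0.012 in place of -0.057, and that of the further neurotrophic factors and receptors -0.084 in place of -0.24. With RLE size factors it was -0.031 for the processing and secretion genes, -0.044 for the Trk adaptors and kinases and -0.027 for the regulators of Bdnf transcription. The other 61 alternative values turned no direction, and the counts and medians among them stayed within 1.5 times those reported. No paired analysis was possible because each genotype has 1 column, and for the same reason no sample could be left out. Depth limits Bdnf and Ntf3, with at most 31 reads in a library.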

Other observations

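Other families of neurotrophic factors were described in the same way, beside a median log2 ratio of -0.01 for all genes. With the authors' totals, 19.2% of all genes had an interval below 1 and 16.5% above. Of 7 genes of the family of glial cell line-derived neurotrophic factor and its receptors, 4 had intervals below 1 and none above, with a median log2 ratio of -0.35 (-0.37 over those with a mean of at least 10 CPM). Sdc3, a syndecan that binds these ligands, had 5810 reads in the FOXM1f/+;Nestin-Cre library and 7287 in the WT library and was 1.28-fold lower (1.23 to 1.32). The co-receptor gene Gfra4 had 191 reads in the FOXM1f/+;Nestin-Cre library and 361 in the WT library and was 1.92-fold lower (1.61 to 2.30), and the adhesion molecule Ncam1 was 1.11-fold lower (1.07 to 1.14).

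Of 26 genes of further neurotrophic factors and receptors, 12 had intervals below 1, 4 above and 10 across it, with a median of -0.24. Over the genes of this list with a mean of at least 10 CPM the median was -0.084, beside -0.089 for the neurotrophin genes above that minimum. The growth factor Igf2 was 1.29-fold lower (1.19 to 1.40), while Mdk, midkine, had 4124 reads in the FOXM1f/+;Nestin-Cre library and 3367 in the WT library, a log2 ratio of 0.27 (0.20 to 0.33).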
